A study of Homo sapiens with 5 samples.

Results

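Steroidogenic factor-1 (SF-1, encoded by NR5A1) is a nuclear receptor of the adrenal cortex and gonads that binds DNA as a monomer, at a nuclear receptor half-site extended on its 5′ side. It drives the cholesterol transport and hydroxylation steps of steroid hormone synthesis and the development of steroid-producing organs, and adrenocortical tumors often carry extra copies of its gene. The sites compared here are those recovered with the antibody named Perseus in H295R/TR SF-1 cells, at 2 dosages of the factor. H295R is an established human adrenocortical carcinoma cell line, and H295R/TR SF-1 is a subclone of it in which doxycycline switches on additional SF-1. Both dosages therefore carry the transgene, and the results come from 1 clone. Basal SF-1 means cells without doxycycline and overexpressed SF-1 means cells that received it for 3 days.

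Per the labels, 3 libraries of chromatin immunoprecipitation followed by sequencing (ChIP-seq) were pooled at each dosage, and 2 libraries of input DNA were the control. The authors called peaks on the pooled libraries, so there was 1 list a side and no replicate error. The basal list held 6616 peaks and the overexpressed list 7453, a ratio of 1.13, out of 30372 peaks in the 4 lists of the series. The 2 lists made with the other antibody, Millipore, held 4393 basal and 11910 overexpressed peaks and served as a readout that did not choose the sites. Every peak carries a rank, with 1 as the best. The depth behind the lists is unknown, and 95% intervals below cover counting error over peaks only and treat peaks as independent.

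A peak of one dosage was counted as shared when it overlapped a peak of the other by at least 1 bp. By this rule 1949 basal peaks were kept at overexpressed dosage and 4667 were lost, while 5500 peaks of the overexpressed list had no basal partner and are called gained. Seen from the overexpressed list, 1953 peaks were shared. Lost and gained describe the lists: a lost site may lie just under the calling threshold of the other list.

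The sites can be seen at the level of the sequence. The SF-1 consensus has 9 letters: C or T, then CAAGG, then C or T, then C, then A or G. It was searched on both strands with no mismatch. The sequences printed here come from the GRCh37 reference, which is the hg19 build of the files. They are the best-ranked kept, lost and gained sites that hold the consensus within 10 kb of a transcription start site (TSS) of protein-coding genes and outside exons, 4 a class. Each runs for 81 bases, 5′ to 3′ on the strand of the consensus, with 1 match to the consensus in capitals. The ISOC2 sequence holds another match near its 5′ end, which is in lower case. The first 4 were kept, the next 4 were lost and the last 4 were gained, each under the gene with the nearest TSS.
ISOC2, kept, chr19:55972538-55972618, minus strand: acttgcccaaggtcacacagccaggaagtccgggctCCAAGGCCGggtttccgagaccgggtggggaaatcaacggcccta
TPRN, kept, chr9:140095528-140095608, minus strand: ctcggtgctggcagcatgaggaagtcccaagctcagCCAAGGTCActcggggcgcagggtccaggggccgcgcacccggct
NKD2, kept, chr5:1004845-1004925, plus strand: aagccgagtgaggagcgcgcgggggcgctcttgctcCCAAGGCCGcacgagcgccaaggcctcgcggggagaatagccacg
ENSG00000289715, kept, chr1:21864668-21864748, plus strand: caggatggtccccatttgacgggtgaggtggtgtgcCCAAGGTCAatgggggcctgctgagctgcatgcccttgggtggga
CCNE1, lost, chr19:30302265-30302345, minus strand: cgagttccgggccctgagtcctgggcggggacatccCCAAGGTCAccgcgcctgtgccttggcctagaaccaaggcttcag
ATG101, lost, chr12:52455346-52455426, plus strand: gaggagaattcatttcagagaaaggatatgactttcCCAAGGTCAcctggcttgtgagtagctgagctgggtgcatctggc
GTF2IRD1, lost, chr7:73867810-73867890, minus strand: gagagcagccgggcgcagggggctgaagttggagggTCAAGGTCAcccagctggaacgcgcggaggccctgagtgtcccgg
COX17, lost, chr3:119394961-119395041, plus strand: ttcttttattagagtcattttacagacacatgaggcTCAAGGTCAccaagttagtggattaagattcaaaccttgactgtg
PPP2R5E, gained, chr14:64009374-64009454, plus strand: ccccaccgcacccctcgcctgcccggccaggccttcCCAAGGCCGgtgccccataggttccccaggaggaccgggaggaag
LINGO1, gained, chr15:78122732-78122812, plus strand: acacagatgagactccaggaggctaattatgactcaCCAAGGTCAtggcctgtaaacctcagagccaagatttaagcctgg
LRWD1, gained, chr7:102109889-102109969, minus strand: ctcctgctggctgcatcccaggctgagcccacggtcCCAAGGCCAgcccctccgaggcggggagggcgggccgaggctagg
ABCD2, gained, chr12:40010499-40010579, plus strand: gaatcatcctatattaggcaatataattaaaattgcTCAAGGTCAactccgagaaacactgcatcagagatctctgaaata

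Among these sites, the peak in an intron of ISOC2 ranked 53 in the basal list and 1844 in the overexpressed list, and it held 3 matches to the consensus. The peak 3.99 kb upstream of NKD2, which encodes an inhibitor of Wnt signalling, ranked 129 at basal and 1031 at overexpressed dosage, and it was also peak 107 of the overexpressed Millipore list. All 4 kept sites were present in the overexpressed Millipore list, at ranks from 107 to 2994, and absent from the basal one. The lost peak 623 bp upstream of the start of CCNE1, the gene of the G1/S cyclin E1, ranked 113 in the basal list. The lost site in an intron of COX17, a copper chaperone of cytochrome c oxidase, was peak 50 of the basal Millipore list, and the other 3 lost sites were in no Millipore list. Of the 4 gained sites, the one in an intron of LRWD1 was in the overexpressed Millipore list, at rank 6976.

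Sites were kept mainly where they ranked well. In the best-ranked 10% of the basal list 67.2% of peaks were kept (95% Wilson interval 63.6 to 70.7%, 445 of 662), and in the last 10% it was 13.6% (11.2 to 16.4%, 90 of 662). From the overexpressed side the shares were 61.4% (57.9 to 64.8%) in the first 10% and 11.4% (9.31 to 13.9%) in the last. The 837 overexpressed peaks ranked beyond the length of the basal list were shared in 12.4% (10.4 to 14.8%). With both lists held at the same number of best ranks the share of basal peaks kept was 27.9%, against 29.5% (28.4 to 30.6%) with all peaks. Over the 1949 kept peaks the ranks in the 2 lists were related with a Spearman correlation of 0.42, a description over peaks that share libraries.

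**Figure D1:**
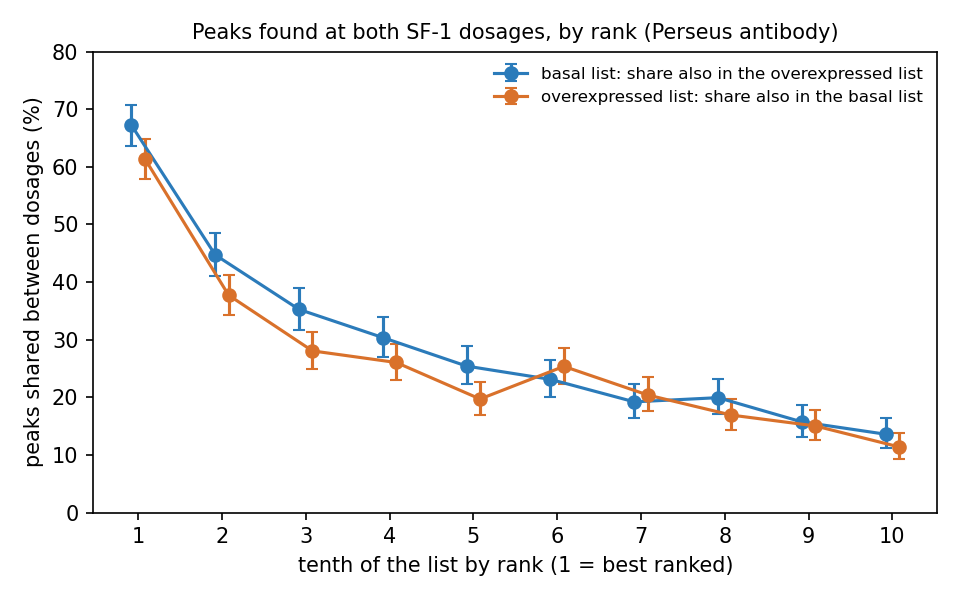
Share of peaks found at both dosages (vertical axis, percent, bars are 95% Wilson intervals) in 10 groups of equal size of the basal and of the overexpressed Perseus list by rank (horizontal axis, 1 is the best). The basal curve runs from 67.2% to 13.6% and the overexpressed one from 61.4% to 11.4%, and the basal curve lies above the other in the first 5 groups.

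The very first ranks were held by sequence of an unusual kind. Of the 100 best-ranked basal peaks 96 were kept, but only 6 held the SF-1 consensus and 13 lay within 1 kb of a TSS. In this group 51 lay within 1 Mb of a run of at least 1 Mb of unknown bases, 23 consisted for at least 50% of words of 25 letters that occur at 5 or more places in the genome, and 3 overlapped an annotated pseudogene of mitochondrial origin. One or more of these held for 57 of the 100, against 416 of all 6616 basal peaks (6.29%). The other 43 were kept in 42 cases and held the consensus in 5. The overexpressed list looked alike, with 58 such peaks among its first 100 and 397 in all (5.33%). By class, such sequence made up 10.4% of kept, 4.56% of lost and 3.55% of gained peaks, and without the peaks beside unknown bases or in repeated words 28.1% of basal peaks were kept.

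Of the 5 best-ranked kept peaks within 100 kb of a TSS and away from unknown bases, 2 lay over mitochondrial pseudogenes. Peak 1 of the basal list, chr1:569701-570149, lay over the mitochondrial pseudogenes MTATP6P1 and MTCO3P12 and ranked 20 at overexpressed dosage. Peak 4, chr5:134259651-134260499, lay inside PCBD2 over MTCYBP18, MTND6P4 and MTND5P11 and ranked 19. Peak 7, chr11:10530751-10531199, was intergenic, with RNF141 as the nearest gene at 31.8 kb, and ranked 24. Next came peaks 10 and 26, in introns of PMF1, a kinetochore protein, and of MYO1D, an unconventional myosin. These ranked 8 and 26 at overexpressed dosage, and they were peaks 1 and 15 of the overexpressed Millipore list. Among the 5 sites only the first held the SF-1 consensus.

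Of the 5 best-ranked lost and of the 5 best-ranked gained peaks, 4 each lay within 1 kb of a TSS. The 5 best lost peaks ranked 97 to 124 in the basal list and were nearest to BCL9, a Wnt coactivator, POP4, a subunit of RNase P, CCNE1, SLC49A4 and the autophagy gene ATG101, at distances of 296 bp, 40 bp, 623 bp, 59 bp and 7655 bp from the TSS. None of them overlapped a peak of either Millipore list. The 5 best gained peaks ranked 74 to 104 in the overexpressed list. They were nearest to POLM, a DNA polymerase, PPP2R5E, a regulatory subunit of phosphatase 2A, VAV2, a guanine nucleotide exchange factor, TRAF1, an adaptor of tumor necrosis factor receptors, and DCAF10. In all but POLM, at 2854 bp, the peak centre lay within 1 kb of the TSS, and of these 5 only the VAV2 peak was also in the overexpressed Millipore list, at rank 9334.

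Kept sites were closer to genes than lost or gained sites. Of the kept peaks 37.04% (34.9 to 39.2%) had their centre within 1 kb of a protein-coding TSS, against 22.0% (20.8 to 23.2%) of lost and 22.9% (21.8 to 24.0%) of gained peaks. The difference between kept and lost was 15.1 percentage points (95% Newcombe interval 12.6 to 17.5). Gained minus lost was 0.91 points (-0.72 to 2.53), an interval that includes 0, but measured from the starts of all transcripts it was 2.49 points (0.68 to 4.29), which excludes 0. Conversely, 27.2% of lost and 23.7% of gained peaks were farther than 100 kb from any TSS, and gained minus lost was -3.51 points there (-5.22 to -1.82). Introns away from starts held 25.9% of kept, 42.4% of lost and 41.3% of gained peaks.

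**Figure D2:**
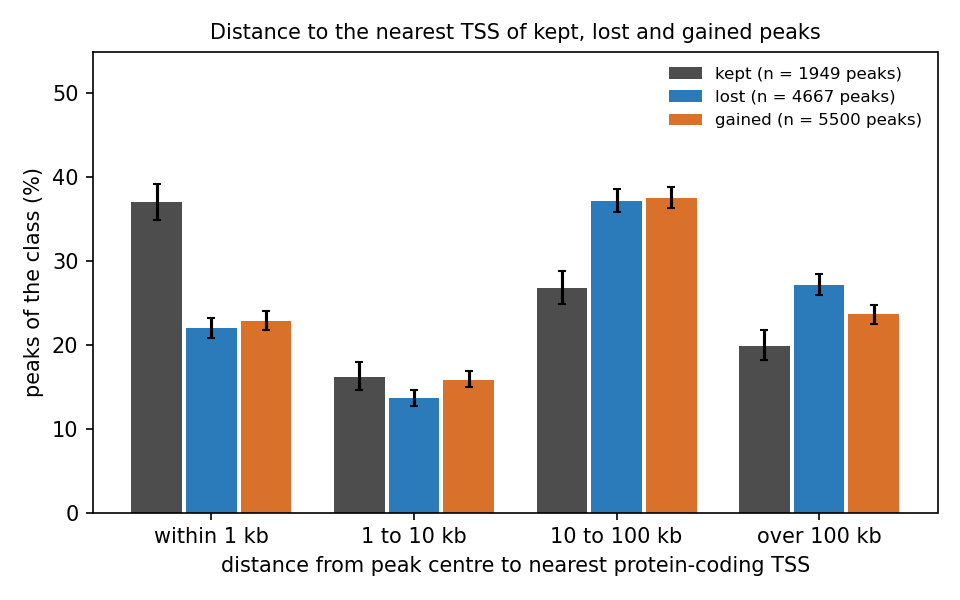
Share of kept, lost and gained Perseus peaks (vertical axis, percent, bars are 95% Wilson intervals) in 4 classes of distance from the peak centre to the nearest protein-coding TSS (horizontal axis). Kept peaks stand out within 1 kb, at 37.04%, while lost and gained peaks are at 22.0% and 22.9%.

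The base composition moved with this result. Mean GC content was 58.5% in kept, 49.7% in lost and 52.7% in gained peaks, and kept peaks were wider, with a median of 199 bp against 149 bp. Among peaks with a GC content of 65% or more, 63.5% of kept, 65.5% of lost and 60.1% of gained peaks lay within 1 kb of a TSS. Kept minus lost was then -2.03 points (-6.49 to 2.42), so the difference between kept and lost was not seen at this GC content, nor between 55 and 65%, at -1.64 points (-7.28 to 4.10). Between 45 and 55% GC it was 5.69 points (1.28 to 10.8), with more kept than lost peaks at a TSS, and under 45% it was 0.15 points (-1.14 to 2.15). In the classes from 55% GC upwards gained peaks were less often at a TSS than lost peaks, by -10.5 points (-14.95 to -5.98) between 55 and 65% and by -5.45 points (-9.34 to -1.51) above. The difference also varied with rank. Kept minus lost was 6.33 points (1.72 to 10.9) in the best-ranked 25% of the basal list. In the following groups of 25% it was 13.9 points (8.95 to 18.9), 17.7 points (12.2 to 23.3) and 14.3 points (8.67 to 20.5). Whether rank or GC content accounts for the difference was not tested.

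The consensus followed the order kept, lost, gained. It was present in 27.96% of kept peaks (26.02 to 29.998%, 545 of 1949), 18.98% of lost peaks (17.9 to 20.1%, 886 of 4667) and 14.1% of gained peaks (13.2 to 15.1%, 777 of 5500). Windows of the same width placed 5 kb from the peaks held it in 1.83%, 1.20% and 1.18%, and windows of 149 bp centred on all 20163 protein-coding TSS in 0.992%. Kept minus lost was 8.98 points (6.72 to 11.3), and gained minus lost was -4.86 points (-6.31 to -3.41). Kept peaks were wider, and in 100 bp about the peak centre the shares were 16.3%, 13.2% and 9.98%, with kept minus lost at 3.07 points (1.20 to 5.01) and gained minus lost at -3.22 points (-4.48 to -1.97). Peaks with 2 or more matches made up 2.98% of kept, 0.750% of lost and 0.945% of gained peaks. Where present, the consensus lay at a median of 39 bp from the centre in kept, 30.5 bp in lost and 32 bp in gained peaks, in lists whose starts fall on a grid of 50 bp.

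The order held by rank and by place. In the best-ranked 25% of each list 28.6% of kept, 24.2% of lost and 15.6% of gained peaks held the consensus, and gained minus lost was -8.62 points (-12.4 to -4.91). In the last 25% of ranks kept minus lost was 4.63 points (-0.29 to 10.3), an interval that includes 0. Within 1 kb of a TSS the consensus was in 21.7% of kept (157 of 722), 9.45% of lost (97 of 1026) and 5.64% of gained peaks (71 of 1259). Beyond 1 kb the shares were 31.6%, 21.7% and 16.6%. By GC content the gap between gained and lost was widest from 45 to 55%, with 19.5% against 31.6%, a difference of -12.1 points (-16.1 to -8.08). At 65% GC or more it was -1.78 points (-4.09 to 0.41), while kept peaks held the consensus in 22.2% there, against 8.98% of lost peaks.

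**Figure D3:**
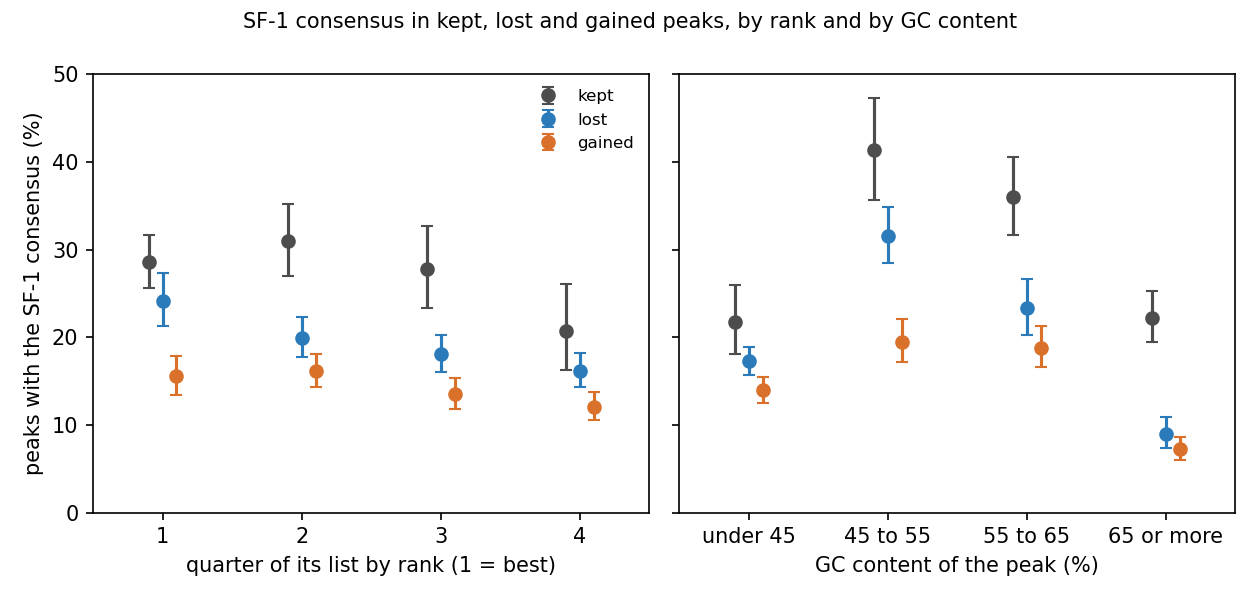
Share of kept, lost and gained Perseus peaks that hold the SF-1 consensus (vertical axis, percent, bars are 95% Wilson intervals), by rank in 4 groups of equal size in the left panel and by GC content of the peak in the right panel. Kept peaks lie highest and gained peaks lowest in every group, with the widest gap between lost and gained peaks at 45 to 55% GC, at 31.6% and 19.5%.

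The 8 forms of the consensus took different shares in the classes. TCAAGGTCA made up 26.8% of the matches in kept peaks (23.5 to 30.3%), 35.2% in lost (32.2 to 38.3%) and 29.2% in gained peaks (26.2 to 32.4%). In the windows 5 kb from kept peaks it was 10.96% of 73 matches, in those from lost peaks 25.7% of 113 matches (18.5 to 34.4%), and in those from gained peaks 19.8% of 131 (13.9 to 27.5%). CCAAGGTCA was close in the 3 classes, with 27.4%, 28.7% and 26.8%. CCAAGGCCA made up 19.3% of matches in gained peaks (16.8 to 22.1%) against 10.9% (9.09 to 13.1%) in lost peaks, while TCAAGGCCA was at 14.2% and 15.2%. The windows 5 kb away had the same order for CCAAGGCCA, with 26.0% near gained and 19.5% near lost peaks. CCAAGGCCG, which ends with a CpG, was 8.15% of the matches in kept, 2.71% in lost and 5.24% in gained peaks. In the windows it was 2.74% for kept peaks (2 of 73 matches), 3.54% for lost and 7.63% for gained peaks.

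Words of other promoter factors were compared as well. Each was searched as spelled, on both strands, over the whole peak. Mean width was 233 bp in kept, 153 bp in lost and 161 bp in gained peaks, against 149 bp for the TSS windows. The shares of words were not adjusted for width. GGGCGG, the GC box bound by SP1 and related factors, was in 35.8% of kept, 16.7% of lost and 18.6% of gained peaks, and in 40.8% of the windows on all TSS. Restricted to peaks within 1 kb of a TSS, it was in 58.3%, 48.9% and 48.5%, and gained minus lost was -0.48 points (-4.59 to 3.64). CCGGAAG, the core recognised by ETS factors, was in 13.4% of kept, 10.7% of lost and 7.94% of gained peaks at a TSS, where gained minus lost was -2.78 points (-5.24 to -0.39) and all TSS windows gave 8.78%. Kept minus lost was 2.71 points (-0.36 to 5.92). CGCATGCG, the core of the NRF1 site, was in 24 of 722 kept (3.32%), 32 of 1026 lost (3.12%) and 6 of 1259 gained peaks at a TSS (0.477%), against 1.72% of all TSS windows. The difference between gained and lost was -2.64 points (-3.92 to -1.58), and that between kept and lost 0.21 points (-1.45 to 2.02). For CCAAT, bound by NF-Y, and CACGTG, the E-box, gained minus lost at a TSS was 1.15 points (-1.67 to 3.92) and -1.54 points (-3.41 to 0.24), and all TSS windows held them in 20.1% and 4.80%.

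Words of factors that act in steroidogenic and signal-responsive cells were searched in the same way. TGACGTCA, the cAMP response element, was in 1.18% of kept, 0.600% of lost and 0.273% of gained peaks, against 1.61% of all TSS windows, and gained minus lost was -0.33 points (-0.61 to -0.07). For TGANTCA, bound by AP-1, the shares were 4.62%, 4.78% and 4.18%, and for AGATAAG, bound by GATA factors, 1.23%, 1.84% and 1.51%, with intervals of the differences between gained and lost that include 0. All TSS windows held the AP-1 word in 2.97% and the GATA word in 1.05%, and the windows 5 kb away held the GATA word in 2.50%, 2.11% and 1.75%. AAGGTCA, which is part of 2 of the 8 forms of the consensus, was in 18.5% of kept, 15.7% of lost and 12.9% of gained peaks and in 1.47% of all TSS windows. None of the other words is part of the consensus. A word is a match of letters and not a measured binding site of its factor.

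Lost and gained peaks were sometimes neighbours. Of the 4667 lost peaks 297 had an overexpressed peak within 500 bp (6.36%, 5.70 to 7.10%), 661 within 5 kb (14.2%) and 902 within 10 kb (19.3%). An example lies 449 kb from the start of SOX9, a transcription factor of testis and cartilage development. There the gained peak chr17:70565701-70565799 ended just before the lost peak chr17:70565801-70565999 began. The rule counts these as separate sites, and the consensus was found in the lost peak only.

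Counted by gene, the overlap of the dosages was larger than counted by site, but a gene also counted as shared through different sites. No overlap expected by chance was computed. Each peak was assigned to the protein-coding gene with the nearest TSS. The basal peaks fell to 4479 genes and the overexpressed peaks to 4976, of which 2599 were shared, or 58.0% of the basal and 52.2% of the overexpressed genes. With peaks within 1 kb of the TSS only, 804 genes were shared by 1629 basal genes (49.4%) and 1820 overexpressed genes (44.2%). Of the 20163 protein-coding genes 6856 had any peak (34% of all genes). A kept peak was assigned to 1598 genes (7.93% of all), lost and gained peaks but no kept one to 1010 (5.01%), lost peaks only to 1875 (9.3%) and gained peaks only to 2373 (11.8%). By peaks within 1 kb of the TSS, 2645 genes had a site (13.1%), and 701 kept one (3.48%), 122 had both a lost and a gained one (0.605%), 817 had lost ones only (4.05%) and 1005 gained ones only (4.98%). These shares are the background for the gene groups below. Genes with much space around them collect more peaks, which was not corrected, so each group also has its count within 1 kb.

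Genes with the most kept peaks within 100 kb were ANKRD30BL with 13, OR4C46 with 5, C7orf25 and EXOC3 with 4 each and ABCB9 with 3, a number it shared with other genes. All 5 kept peaks of OR4C46 lay on chromosome 11 at 53.6 to 75.2 kb from its start, beside unknown bases, at basal ranks of 8, 12, 24, 70 and 1305. Without peaks beside unknown bases or in repeated words OR4C46 had none and ANKRD30BL 12. The kept peaks of ANKRD30BL lay within 34.5 kb of its start, at best basal ranks of 30, 42 and 55. None of the peaks of ANKRD30BL, OR4C46 and C7orf25 within 100 kb held the consensus, while EXOC3 and ABCB9 had kept peaks with it.

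Among genes with lost peaks and neither kept nor gained ones within 100 kb, DCAF1, a substrate receptor of a ubiquitin ligase, had the most, with 6. Of these, 3 lay within 1 kb of its TSS on chromosome 3, at basal ranks of 825, 2787 and 5414. AKIRIN2, EZH2, NR2F2 and SEMA4B followed with 4 lost peaks each, as did ZCCHC7. EZH2 encodes the methyltransferase of the Polycomb repressive complex, and 3 of its lost peaks lay within 1 kb of the TSS, at ranks of 812, 2336 and 4895. The 4 lost peaks of NR2F2, the gene of the orphan receptor COUP-TFII that competes for SF-1 sites, lay 14958 to 31733 bp downstream of its start, and farther away it had both lost and gained ones.

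On the gained side ENSG00000289653, GRTP1, ITPR2 and RHOT2 had 5 peaks each and ADARB1 had 4, as others did. ITPR2, an inositol trisphosphate receptor that releases calcium, had 1 gained peak with the consensus 1102 bp into the gene. It ranked 591 and was in both Millipore lists, at ranks of 413 basal and 2496 overexpressed. RHOT2, a mitochondrial GTPase, had 3 of its 5 gained peaks within 1 kb of its start, at ranks of 4306, 6080 and 7106. ADARB1 encodes an RNA-editing adenosine deaminase, and 2 of its 4 gained peaks held the consensus.

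In the steroid synthesis group 15 of 24 genes had a peak (62.5%, 42.7 to 78.8%), of which 3 kept one, 3 had lost and gained ones, 3 lost ones only and 6 gained ones only. Only 2 of the 24 had a peak within 1 kb of the TSS, or 8.33% against 13.1% of all genes. Together these genes had 3 kept, 8 lost and 13 gained peaks. The consensus was in 1 of the 3 kept and 4 of the 8 lost peaks and in none of the 13 gained ones. Over all peaks it was in 27.96% of kept, 18.98% of lost and 14.1% of gained ones, so these counts are too small to set the group apart.

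For CYP11A1, the side-chain cleavage enzyme that starts steroid synthesis, the kept peak chr15:74619151-74619449 lay 40.7 kb from the start, in an intron of CCDC33. It held the consensus, ranked 973 at basal and 3035 at overexpressed dosage, and it was peak 41 of the basal and 1283 of the overexpressed Millipore list. A basal peak with the consensus at rank 805, 44.4 kb from the start, was lost. The overexpressed list had a gained peak over an exon 1.64 kb into the gene, at rank 917, which was also in the overexpressed Millipore list at rank 4917. A second gained peak ranked 7410, 14963 bp upstream.

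For STAR, which carries cholesterol into mitochondria, the basal peak at 16.4 kb from the start held the consensus and was lost, at rank 3125. The gained peak lay 140 bp upstream of the start, at rank 5743, without the consensus. POR, the electron donor of microsomal cytochromes, kept a peak 2.24 kb upstream at ranks of 4324 and 4885 and gained 2 inside the gene, at ranks of 2493 and 4266. HSD17B3, which makes testosterone, kept an intronic peak at ranks of 3233 and 2500. The promoter peak of FDX1, the ferredoxin that feeds electrons to mitochondrial cytochromes, ranked 759 in the basal list at 28 bp from the TSS and was lost, together with another at 39.4 kb.

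CYP19A1, the aromatase, had a single lost peak with the consensus, 80.5 kb into the gene at rank 1651, and HSD3B1 a lost peak at rank 6469. Genes with gained peaks only were CYP21A2, FDXR, HSD11B1, HSD17B1, HSD3B2 and SULT2A1, at ranks from 2392 to 6027. For CYP21A2, the adrenal 21-hydroxylase, the peak lay over TNXB and beside a near-identical pseudogene copy, so its assignment is uncertain. The peak of SULT2A1, which sulfates dehydroepiandrosterone, was the best ranked of them, at 2392. CYP11B2, the aldosterone synthase, and PAPSS2, which supplies activated sulfate, each had 1 lost and 1 gained peak.

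Cholesterol supply genes had a peak in 23 of 35 cases (65.7%), with 5 kept, 6 lost and gained, 5 lost only and 7 gained only, and 6 of 35 had one within 1 kb of the TSS (17.1%). SOAT1, which esterifies cholesterol for storage, kept an intronic peak at ranks of 817 and 6691. Lanosterol synthase, LSS, had 3 gained peaks within 1 kb of its start at ranks of 645, 1100 and 1509, and a lost one 1112 bp upstream at rank 4877. SCAP, the escort protein of the sterol-sensing transcription factors, gained 3 peaks and lost 1. SCARB1, the receptor for high-density lipoprotein, kept a peak 137 kb from its start at ranks of 5712 and 662.

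Transcription factors of adrenal and gonadal development had a peak in 19 of 26 cases (73.1%, 53.9 to 86.3%), with 6 kept, 4 lost and gained, 2 lost only and 7 gained only. Within 1 kb of the TSS it was 7 of 26 (26.9%). NR5A1 itself had a lost peak 108 kb upstream, in an intron of its neighbour NR6A1, at rank 1116. It had gained peaks 2.22 kb into the gene at rank 1909 and 51 bp upstream of the start at rank 6983, both without the consensus.

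FOXL2, an ovarian forkhead factor, kept a peak with the consensus 10.7 kb from its start at ranks of 891 and 914, the closest pair of ranks in the group. GATA6, which acts with SF-1 at steroidogenic promoters, kept a peak 143 kb upstream at ranks of 5029 and 776, which was also in both Millipore lists at ranks of 402 and 462. It gained a peak with the consensus at 107 kb, at rank 434. NR0B2, the corepressor SHP, kept a promoter peak at ranks of 3060 and 7380 that was peak 908 of the basal and 23 of the overexpressed Millipore list. NR4A1 and NR4A3, immediate early receptors induced by adrenocorticotropin (ACTH), each kept a peak, within 884 bp and 1987 bp of their starts. The Polycomb gene CBX2 kept a peak with the consensus 23.3 kb upstream.

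TCF21, a transcription factor of gonadal development, had a lost peak only, at rank 1342. Gained peaks only were found for EMX2, LHX9, NR4A2, NR5A2, PKNOX1, SIX4 and ZFPM2, at ranks from 2732 to 7209. The homeobox gene PKNOX1 and the sine oculis homeobox gene SIX4 had theirs within 1 kb of the TSS. CITED2, a cofactor of SF-1 in adrenal development, lost its promoter peak, 765 bp upstream at rank 1555, and its other peaks lay 39.3 kb or more away. NR2F2 and SOX9 also had lost and gained peaks and no kept one.

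In the pathway of ACTH, cyclic AMP and protein kinase A, 16 of 28 genes had a peak (57.1%), 6 of them kept, 3 lost and gained, 2 lost only and 5 gained only. Within 1 kb of the TSS it was 7 of 28 (25%), 1 of them kept. ADCY5, an adenylyl cyclase, kept a peak 40.5 kb upstream at ranks of 440 and 1811. CRTC2, a coactivator of CREB, lost its promoter peak, 34 bp from the TSS at rank 696, and gained one 2.17 kb into the gene at rank 366. The phosphodiesterase genes PDE11A and PDE8A gained peaks at best ranks of 425 and 479, and PDE11A also had a lost one. Among genes of the ion channels and sensors of aldosterone secretion, 8 of 16 had a peak (50%), and 4 of 16 had one within 1 kb (25%). CALM3, a calmodulin gene, kept its promoter peak at ranks of 146 and 262. KCNK3, a background potassium channel, lost its promoter peak at rank 570.

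Each gene was put in 1 class, and it counted as kept if any of its peaks was kept, whatever else it lost or gained. At any distance, kept was the commonest of these gene classes in Notch and TGF-beta genes, as in the ACTH pathway and the respiratory chain. The same held for histone, proteasome, immediate early and olfactory receptor genes, adrenocortical tumor drivers and neuronal genes silenced by the repressor REST. It is therefore not particular to these pathways. Of 22 Notch genes 6 kept a peak (27.3%, against 7.93% of all genes). Of the others, 3 had lost and gained ones, 1 lost ones only and 1 gained ones only. Within 1 kb of the TSS 4 of 22 had a peak (18.2%), 2 of them kept and 2 gained only. The ligand DLL4 kept its promoter peak at ranks of 900 and 736, and the target HES1 kept one and lost another with the consensus at rank 400, 1.46 kb upstream. Of 27 genes of TGF-beta, inhibin and activin 7 kept a peak (25.9%), and 1 had gained ones only. Within 1 kb of the TSS 3 of 27 had a peak (11.1%), with 1 kept, 1 lost only and 1 gained only. SMAD6, an inhibitory SMAD, kept 3 peaks, the best of them 1049 bp wide and 151 bp from the start, at ranks of 229 and 256. SMAD3 kept 2, at best ranks of 336 and 800.

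In the insulin-like growth factor axis 6 of 14 genes had a peak (42.9%) and 2 kept one. Within 1 kb of the TSS 2 of 14 had a peak (14.3%), none of them kept. IRS2, the insulin receptor substrate, kept 3 peaks, with the best at ranks of 163 and 222, lost 5 and gained 3. Of 59 Wnt genes 28 had a peak (47.5%), with 6 kept, 12 lost only, 10 gained only and none with lost and gained peaks alone. Within 1 kb of the TSS it was 5 of 59 (8.47%, against 13.1% of all genes). AXIN2, a negative feedback target of the pathway, kept an intronic peak with the consensus at ranks of 1031 and 570, and gained a promoter peak at rank 849. The beta-catenin gene CTNNB1 was assigned 2 kept, 5 lost and 4 gained peaks. All 5 lost ones lay in introns of ULK4, 98.4 kb or more from the CTNNB1 start. The kept ones lay 4.67 and 238 kb from it and the gained ones 4.19, 14.2, 221 and 241 kb. ZNRF3, which removes Wnt receptors from the membrane, had lost peaks only.

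Among HOX and angiogenesis genes, as among all genes, gained peaks only was the commonest outcome, and the shares with any peak were near the 34% of all genes. Of 39 HOX genes 12 had a peak (30.8%), 8 of them gained only, 3 lost only and 1 kept. Within 1 kb of the TSS it was 5 of 39 (12.8%), 3 of them gained only and 2 lost only. HOXA11 had the best-ranked gained peak, at 164. HOXC13 had a lost one at rank 128, 40 bp from its TSS. Of 24 angiogenesis genes 9 had a peak and 5 of these were gained only (20.8%, against 11.8% of all genes). Within 1 kb of the TSS 2 of 24 had a peak (8.33%), and 1 of 24 was gained only, against 4.98% of all genes. THBS2, an inhibitor of angiogenesis, had the best-ranked gained peak, at 128. VEGFA was the only gene of the group with a kept peak, at ranks of 2713 and 824. Of 21 exchange factors of the Ras family 12 had a peak (57.1%), 4 of them kept. Within 1 kb of the TSS it was 3 of 21 (14.3%, against 13.1% of all genes). VAV2 gained 2 peaks within 1 kb of its start at ranks of 79 and 647 and lost one at rank 986.

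Housekeeping groups differed in how often they had a peak at the TSS. Of 86 genes of the respiratory chain 39 had a peak (45.3%) and 17 kept one (19.8%). Within 1 kb of the TSS it was 23 of 86 (26.7%), 11 of them kept. These included NDUFS7 at ranks of 80 and 574, ATP5ME at 218 and 495 and SDHA at 262 and 485. The best-ranked kept peaks of the group lay far from their genes. That of UQCRFS1, at ranks of 21 and 16, was 1909 kb away beside unknown bases. That of COX6C, at 22 and 71, was 398 kb away in an intron of VPS13B. Splicing factors had a peak within 1 kb in 18 of 78 cases (23.1%), 3 of them kept, and the zinc finger genes of chromosome 19 in 48 of 246 (19.5%), with 10 kept, 15 lost only and 21 gained only. Ribosomal protein genes were nearer to the background, with 10 of 86 (11.6%). Olfactory receptor genes had a peak in 17 of 399 cases (4.26%) and none within 1 kb. Of 94 keratin-associated genes 2 had a peak, also none of them within 1 kb.

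**Figure D4:**
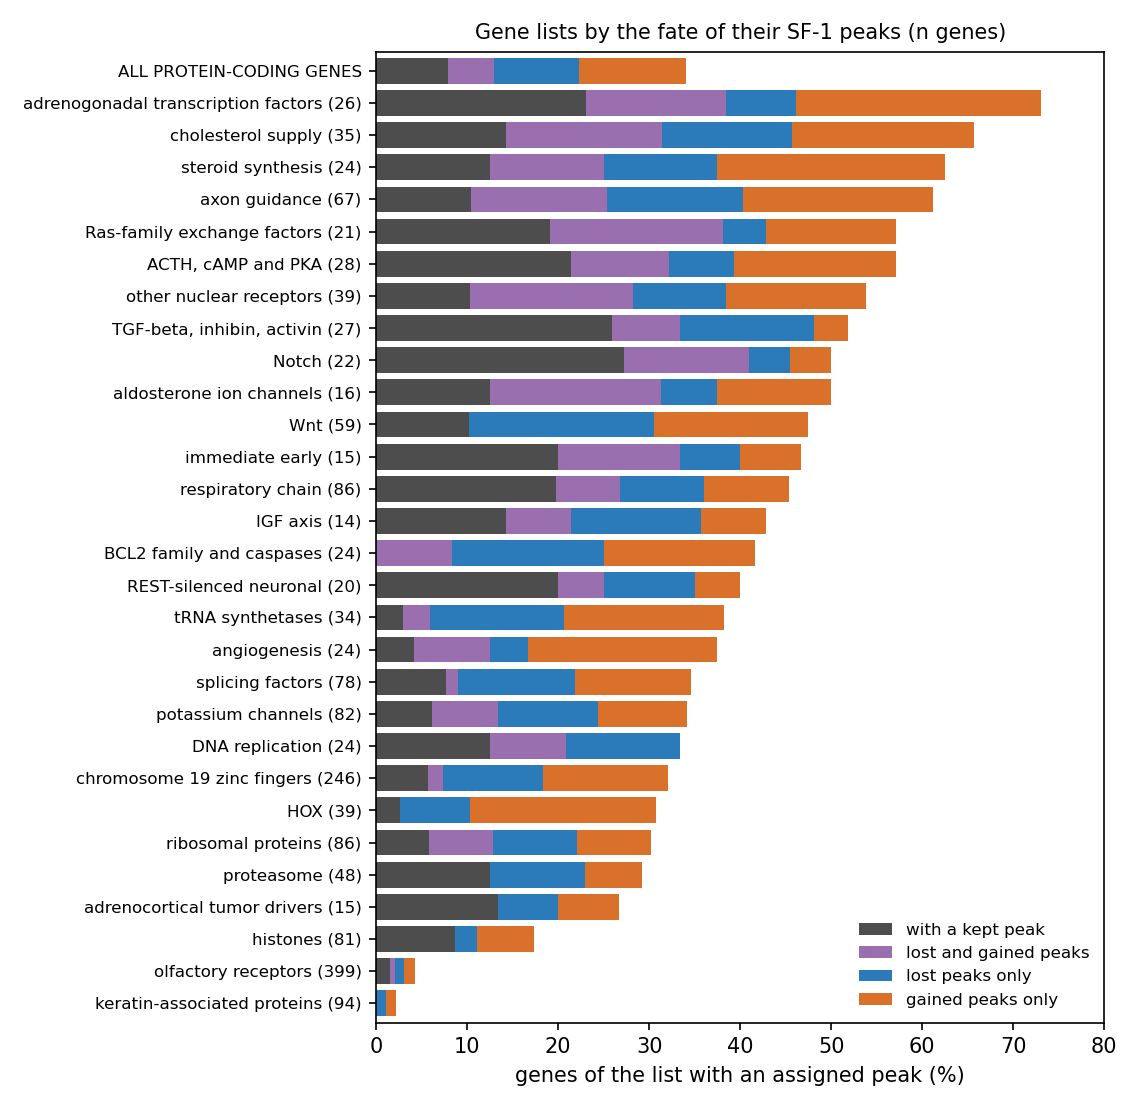
Share of the genes of each list with an assigned peak (horizontal axis, percent), split by whether the gene had a kept peak, lost and gained peaks, lost peaks only or gained peaks only. The vertical axis gives the lists with their number of genes. All protein-coding genes reach 34%, the transcription factors of adrenal and gonadal development reach 73.1% and the keratin-associated genes 2.13%.

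The Millipore lists, which had no part in defining the classes, were read last, both cut to their 4393 best ranks. Kept peaks were found in the basal Millipore list in 14.0% (12.5 to 15.6%) and in the overexpressed one in 20.4% (18.7 to 22.3%). Lost peaks were found in 5.01% (4.42 to 5.68%) and 4.05% (3.52 to 4.65%), and gained peaks in 3.04% (2.61 to 3.52%) and 8.36% (7.66 to 9.12%). Among gained peaks 418 were in the overexpressed list only and 125 in the basal list only, a difference of 5.33 points of the same peaks (4.51 to 6.15). Among lost peaks 149 were in the overexpressed list only and 194 in the basal list only, a difference of -0.96 points (-1.74 to -0.19). The direction for lost peaks depended on the length of the lists: with all 11910 overexpressed Millipore peaks it was 3.09 points (2.18 to 3.996).

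The consensus split this result. Lost peaks with the consensus were in the basal Millipore list in 13.5% (120 of 886) and in the overexpressed one in 6.88% (61 of 886), a difference of -6.66 points (-9.25 to -4.07). Lost peaks without it were in 3.02% and 3.39%, a difference of 0.37 points (-0.37 to 1.11). Gained peaks with the consensus were in 8.75% and 13.3%, and those without it in 2.10% and 7.56%. Kept peaks with the consensus were found in 26.97% and 28.99%, a difference of 2.02 points (-2.60 to 6.63), and those without it in 8.90% and 17.1%. The result also differed by place. For the full Millipore lists the paper reports a larger share of sites close to a TSS at overexpressed dosage. Neither the split by consensus nor that by place was adjusted for the make-up of these lists. Within 1 kb of a TSS lost peaks were in the overexpressed Millipore list more often than in the basal one, by 3.90 points (2.44 to 5.36), and beyond 1 kb less often, with a difference of -2.33 points (-3.24 to -1.43). With all overexpressed Millipore peaks the difference was -1.02 points (-3.79 to 1.76) for lost peaks with the consensus and 0.85 points (-0.15 to 1.85) for lost peaks beyond 1 kb, so both intervals then included 0.

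**Figure D5:**
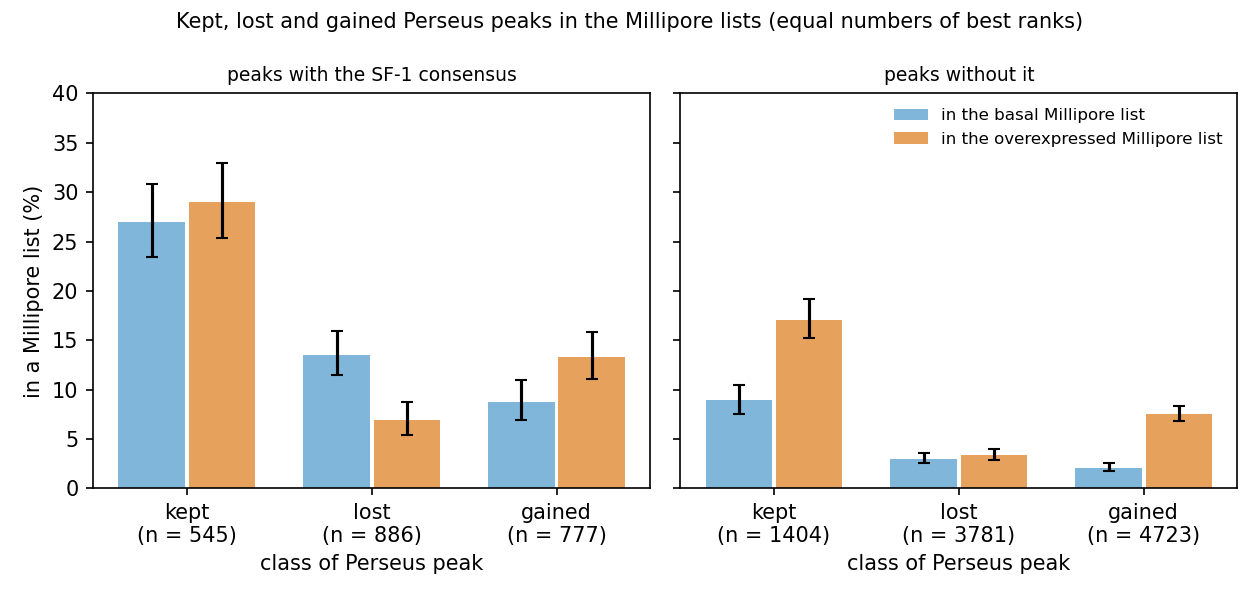
Share of kept, lost and gained Perseus peaks that overlap a peak of the basal or of the overexpressed Millipore list (vertical axis, percent, bars are 95% Wilson intervals), with the Millipore lists held at 4393 best ranks each. The left panel shows peaks with the SF-1 consensus, where lost peaks are at 13.5% and 6.88% and gained peaks at 8.75% and 13.3%, and the right panel shows peaks without it.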

How the data were processed

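Chromatin of H295R/TR SF-1 cells was precipitated with the Perseus antibody at both dosages. According to their methods, the authors mapped the reads to hg19 with ELAND and called peaks with the SeqPeak program of CisGenome on 3 pooled libraries against input. The submitters' processing notes name CASAVA 1.6. The deposited score column holds the rank of each peak, and a further deposited score is 1000 for every peak and was not used. What was ranked, read depth, duplicate removal and repeat filters are not given in the sources used here. With unknown depth, longer lists may hold weaker peaks.

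Each peak centre was set against the 5′-most annotated start of 20163 protein-coding genes, from GENCODE version 44 on GRCh37. Shares have Wilson intervals, differences Newcombe intervals, and differences over the same peaks an interval from the discordant counts, all at 95%. No p-value was computed, since there was 1 list a side.

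Named peaks were the 5 best-ranked of each class within 100 kb of a TSS and farther than 1 Mb from unknown bases. Named genes were the members of the steroid synthesis and adrenogonadal lists with a peak (1 is not reported here), the 5 with the most kept, lost or gained peaks within 100 kb with ties by symbol, and in other lists up to 4 members with the best-ranked peak. Further members were named after their values were seen: SOX9 as an example of neighbouring peaks, and CTNNB1, ATP5ME and SDHA. The 29 gene lists and the classes were chosen with earlier results of these data known. A criterion on soft-masked repeats could not be applied, since the reference is not masked, and the share of words of 25 letters found at 5 or more places was used instead. Overlap, distance and sequence searches were tested on simulated data and direct searches. The software was matplotlib 3.10.9, numba 0.67.0, pysam 0.24.0, scipy 1.17.1, pandas 2.3.3 and numpy 2.4.6 under Python 3.11.15.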

Additional observations from a re-analysis of the deposited data

How the results depend on the processing

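Of 46 recomputed values for 9 results, 29 stayed within the interval of the reported value, or within 1.5 times of a count. The share of basal peaks kept was 27.04% when the overlap had to reach 50% of the shorter peak, 33.9% for peaks within 500 bp, 27.9% with both lists at the same number of best ranks, and 28.3% without peaks beside unknown bases. Leaving out repeated words as well, an alternative chosen after seeing the data, gave 28.1%, and 11.4 points for the consensus in kept minus lost peaks. That difference was 6.42 points with peaks within 500 bp, 2.72 points with AAGGTCA and 3.07 points within 100 bp of the peak centre. For gained minus lost it was -2.86 points with AAGGTCA and -3.22 points within 100 bp. Gained minus lost within 1 kb of a TSS was -0.98 points in the better-ranked 50% of each list, and 2.49 points (0.68 to 4.29) from the starts of all transcripts, an interval that excludes 0. With peaks within 10 kb of the TSS only, 976 genes kept a site, 1153 had lost ones only and 1478 gained ones only. With the full Millipore lists, overexpressed minus basal was 10.96 points for gained peaks and 3.09 points for lost peaks, the latter reversed. The alternative without soft-masked repeats was not run, since the reference is not masked. No paired analysis was possible because each group is 1 list pooled from 3 libraries.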

Other observations

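The share of basal peaks kept differed between chromosomes. It was highest among the numbered chromosomes on 19, with 39.3% (34.8 to 44.1%, 166 kept), and on 16, with 39.1% (33.4 to 45.2%), and lowest on 4, with 20.7% (16.0 to 26.3%). Chromosome 9 held 11.3% of kept, 8.70% of lost and 9.05% of gained peaks and makes up 4.56% of the length. Sites of the neuronal repressor REST, searched by its consensus with at most 4 mismatches at 19 fixed letters, were in 6 of 1949 kept, 6 of 4667 lost and 16 of 5500 gained peaks. Gained minus lost was 0.16 points (-0.03 to 0.36). No share in background windows is given for REST, so these counts do not measure enrichment. The paper reports significant enrichment of REST sequences in its SF-1 sites, also with a second SF-1 antibody.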
